A study of Rattus norvegicus with 16 samples.

Results

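A set of 8 genes of polyamine synthesis, breakdown and feedback control were followed through the rat ventral prostate, by symbol: *Odc1*, *Amd1*, *Srm*, *Sms*, *Sat1*, *Smox*, *Azin1* and *Oaz1*. They were taken as a list of names, chosen with earlier results of these data known. All 8 of them were found in both count tables, which together hold 33195 gene names. All 8 also passed the filter on low counts in every comparison.

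The libraries came from offspring of dams given a diet with 17% protein (CTR) or a diet with 6% protein during gestation and lactation (GLLP), and the glands were collected on postnatal day (PND) 21 or 540. There were 4 CTR and 3 GLLP libraries at PND21 (the GLLP libraries are numbered 2, 3 and 4), and 5 CTR and 4 GLLP libraries at PND540. The labels name neither strain nor litter, and p-values therefore measure the spread between these samples. Each age has its own count table with its own set of gene names, so age and table cannot be told apart in any comparison between PND21 and PND540.

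Polyamines are small positively charged molecules that bind nucleic acids and are needed for growth and for translation, and the prostate is known for making and secreting large amounts of them, spermine above all. Ornithine decarboxylase (*Odc1*) makes putrescine from ornithine, S-adenosylmethionine decarboxylase (*Amd1*) makes the aminopropyl donor, spermidine synthase (*Srm*) turns putrescine into spermidine, and spermine synthase (*Sms*) turns spermidine into spermine. Spermidine/spermine acetyltransferase (*Sat1*) marks polyamines for export or oxidation, and spermine oxidase (*Smox*) converts spermine back to spermidine. Antizyme (*Oaz1*) binds ornithine decarboxylase and sends it to the proteasome, its translation depends on a frameshift that polyamines favour, and antizyme inhibitor (*Azin1*) takes antizyme away from the enzyme. Much of this control acts on translation and protein stability, which read counts do not measure.

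Totals lay between 28748604 and 39161666 counts per library. All 10 markers of the luminal and prostate epithelium were detected in each library, with summed levels of 16948 to 80695 CPM (read counts brought to a common library size with TMM, the trimmed mean of M-values, over all 16 libraries). The library of CTR replicate 5 at PND540 stood apart: for 10403 of 14767 genes (70.4%) its value was above or below all the others of its age, and its median correlation with them was 0.862 against 0.968 or more for the rest. Values without it are given beside the results it moves. In CTR replicate 1 at PND21, 12 of 13 mitochondrial genes were at 0 counts, and these genes held 0.282% of its counts against 3.66% to 5.02% in the other 6 libraries of that age. In bulk tissue, fewer cells of a type and less RNA per cell cannot be told apart.

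The stretch just before the start of transcription shows how these genes differ in their core promoters, and is given for the 7 genes with an entry in the RefSeq promoter table of the GRCr8 assembly (*Azin1* has no entry). Each line runs 5′ to 3′ on the gene's strand over the 30 bases from 40 to 11 bases before the start, and capitals mark TATAA, searched on the gene's strand only. 
Odc1, chr6:46058625-46058654, plus strand: gctccgccTATAAgtagcggcgcgtcgcac
Amd1, chr20:45265993-45266022, minus strand: gaggatgcttaTATAAagtctgcgctcacg
Oaz1, chr7:9537001-9537030, minus strand: agtgacgacgcaTATAAaagtgggcgtcgg
Srm, chr5:164308962-164308991, plus strand: gagggccggggctccacccccgcccgtagg
Sms, chrX:41331963-41331992, plus strand: ctgacacgccgcgcggtccctcagtctccc
Sat1, chrX:44008049-44008078, plus strand: gtcatggtgtcacgagaaagcccagaagag
Smox, chr3:139204561-139204590, plus strand: gttgaacaggacatcgggatagctctccac
The letters TATAA were present in 3 of these 7 windows, beginning 32 bases before the start in *Odc1*, 29 in *Amd1* and 28 in *Oaz1*, and in 2.75% of 33469 windows of the same kind. The other 4 windows do not hold those letters.

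The longer windows of *Srm* and *Oaz1* are shown because they hold CACGTG, the palindromic E-box that factors such as MYC can bind, in capitals. 
Srm, chr5:164308752-164309001, plus strand: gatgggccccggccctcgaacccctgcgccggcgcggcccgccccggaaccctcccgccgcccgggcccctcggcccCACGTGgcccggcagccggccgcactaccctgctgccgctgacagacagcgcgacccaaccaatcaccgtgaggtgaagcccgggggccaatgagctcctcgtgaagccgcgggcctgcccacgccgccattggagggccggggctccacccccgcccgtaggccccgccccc
Oaz1, chr7:9536991-9537240, minus strand: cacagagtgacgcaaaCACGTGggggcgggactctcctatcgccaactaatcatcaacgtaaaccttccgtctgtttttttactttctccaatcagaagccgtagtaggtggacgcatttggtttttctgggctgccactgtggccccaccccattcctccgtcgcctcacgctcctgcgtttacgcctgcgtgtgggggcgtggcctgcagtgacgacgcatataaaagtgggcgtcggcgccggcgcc
CACGTG begins 173 bases before the start of *Srm* and 234 before that of *Oaz1*, was found in 2 of 7 windows of 300 bases, and is held by 6.42% of 33469 such windows. GGGCGG, the GC box, searched on both strands, was found in 6 of 7 windows (all but *Smox*) and in 33.1% of all windows. AGAACA, part of the androgen response element, searched on both strands, was found in 0 of 7 windows and in 20.7% of all windows. A match is a description of the letters and not of a factor's binding. The genome build named by the submitters is Rnor_6.0, so these GRCr8 positions serve for the sequence alone.

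**Figure D1:**
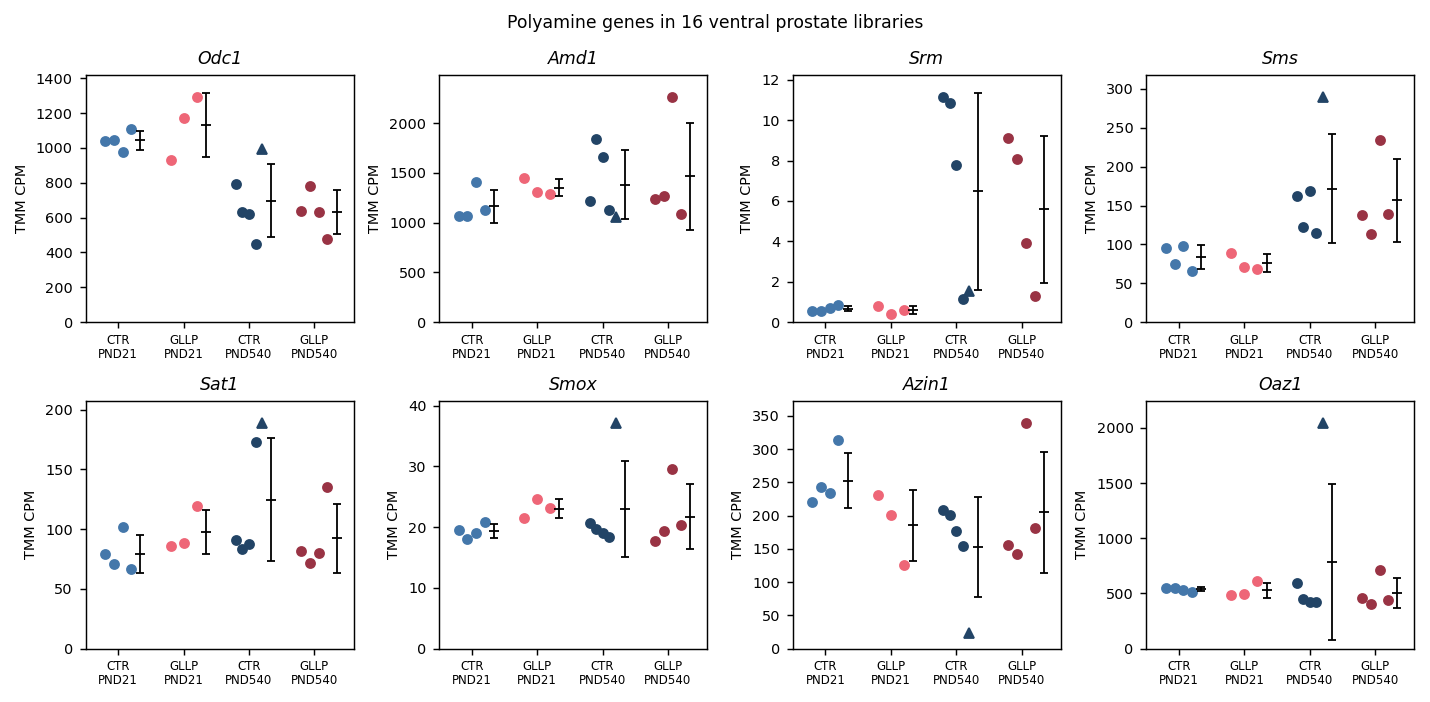
Level of each of the 8 genes (TMM CPM, linear axis from 0) in every library by diet and age; points are libraries, triangles are CTR replicate 5 of PND540, and the bars beside them are the mean ± SD. The PND540 points of Srm and Sms sit above all PND21 points, and those of Odc1 sit below them except for CTR replicate 5.

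*Odc1*, the first and most tightly controlled enzyme of the pathway, was read at 1039, 1044, 979 and 1108 CPM in CTR replicates 1 to 4 at PND21 and at 930, 1173 and 1292 CPM in GLLP replicates 2 to 4. At PND540 it stood at 794, 634, 618, 447 and 996 CPM in CTR replicates 1 to 5 and at 637, 782, 631 and 479 CPM in GLLP replicates 1 to 4. All 4 GLLP libraries of PND540 lay under all 3 of PND21, and in CTR 4 of 5 did, with replicate 5 inside the younger range. RefSeq names 10 pseudogenes after *Odc1*, 3 after *Amd1*, 2 after *Sms* and 2 after *Oaz1*, and counts of these genes are uncertain where reads fit a near-identical copy as well.

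*Amd1* showed no such order. It had 1065, 1063, 1407 and 1124 CPM in CTR and 1453, 1312 and 1292 CPM in GLLP at PND21. The PND540 values were 1221, 1843, 1661, 1125 and 1060 CPM in CTR and 1235, 1271, 2262 and 1092 CPM in GLLP, so the ages overlapped in both diets.

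*Srm* was the gene with the fewest reads of the 8, with 15 to 25 counts per library at PND21 and 38 to 323 at PND540. It had 0.578, 0.567, 0.703 and 0.831 CPM in CTR and 0.824, 0.389 and 0.606 CPM in GLLP at PND21. At PND540 it had 11.1, 10.8, 7.76, 1.14 and 1.56 CPM in CTR and 9.09, 8.08, 3.92 and 1.29 CPM in GLLP. Every PND540 library lay above every PND21 library, and the older libraries fell into higher and lower ones within each diet. The 5 libraries whose column headers carry the numbers 3 to 7 (CTR replicates 1 to 3, GLLP replicates 1 and 2) held 7.76 to 11.1 CPM, and the 4 with the numbers 9 to 12 held 1.14 to 3.92 CPM. In the same way 219 of 14767 genes (1.48%) were separated by these numbers, none of the other 7 polyamine genes among them. The split was read from the *Srm* values themselves. How many genes any other split into 5 and 4 libraries would separate was not counted, so the share does not mark these numbers out. The labels do not call the numbers a batch, and both diets are present on either side of the gap.

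*Sms* had 95.9, 74.98, 97.7 and 66.0 CPM in CTR and 89.6, 70.6 and 68.4 CPM in GLLP at PND21. It had 162, 123, 169, 115 and 289 CPM in CTR and 138, 114, 235 and 140 CPM in GLLP at PND540. The lowest library of PND540, at 114 CPM, lay above the highest of PND21, at 97.7 CPM, and the 2 diets covered much the same range at each age.

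Of the regulators, *Oaz1* had 551, 551, 532 and 514 CPM in CTR at PND21, where its coefficient of variation, 3.32%, was the smallest of the 8, and 483, 497 and 609 CPM in GLLP. At PND540 it had 597, 448, 421, 424 and 2042 CPM in CTR and 462, 407, 709 and 440 CPM in GLLP. *Azin1*, which acts against it, had 220, 243, 234 and 314 CPM in CTR and 230, 200 and 126 CPM in GLLP at PND21, then 209, 200, 176, 154 and 23.0 CPM in CTR and 156, 143, 339 and 181 CPM in GLLP at PND540. CTR replicate 5 was at once the highest library for *Oaz1* and the lowest for *Azin1*, and GLLP replicate 3 was the next highest for *Oaz1* and the highest for *Azin1*.

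Of the genes of breakdown, *Sat1* had 79.3, 70.4, 102 and 66.2 CPM in CTR and 85.7, 88.5 and 119 CPM in GLLP at PND21, and 91.0, 83.2, 87.3, 173 and 188 CPM in CTR and 82.1, 71.7, 80.1 and 135 CPM in GLLP at PND540. *Smox* had 19.5, 18.0, 18.9 and 20.8 CPM in CTR and 21.5, 24.5 and 23.1 CPM in GLLP at PND21, and 20.7, 19.6, 19.0, 18.3 and 37.1 CPM in CTR and 17.8, 19.3, 29.5 and 20.3 CPM in GLLP at PND540. The high libraries of PND540 for *Sat1* were CTR replicates 4 and 5 and GLLP replicate 4. For *Smox* the high libraries were CTR replicate 5 and GLLP replicate 3, and the rest lay between 17.8 and 24.5 CPM at either age.

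Between PND21 and PND540, which also differ in count table, the genes of the last steps of synthesis, *Srm* and *Sms*, were read at higher levels. In CTR, *Srm* rose 9.63-fold (log2 fold change 3.27 ± 0.73 SE, adjusted p = 0.00757) and *Sms* rose 2.05-fold (1.04 ± 0.29 SE, adjusted p = 0.0209), by edgeR's quasi-likelihood test with Benjamini-Hochberg adjustment over 13510 genes. In GLLP, *Srm* rose 9.16-fold (3.20 ± 0.70 SE, adjusted p = 0.0068) and *Sms* 2.04-fold (1.03 ± 0.25 SE, adjusted p = 0.011) by the same test over 13694 genes. The *Srm* values start from 15 to 25 counts per library at PND21. Over both diets they pool 5 older libraries at 7.76 to 11.1 CPM with 4 at 1.14 to 3.92 CPM. The first enzyme moved down in GLLP, where *Odc1* fell 1.81-fold (log2 fold change -0.85 ± 0.21 SE, adjusted p = 0.0112). In CTR the *Odc1* difference was -0.58 ± 0.23 SE with a 95% interval of -1.09 to -0.07 and did not pass the test (adjusted p = 0.0832).

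Those calls amount to 2 of 8 genes in CTR, where 30.5% of all genes tested were called (17.3% higher, 13.2% lower), and to 3 of 8 in GLLP, where 36.2% were called (19.1% higher, 17.1% lower). The shares are near the background, and nothing particular to the 8 genes is read from the counts. Ranges of the 2 ages did not overlap for 3 of 8 genes in CTR (*Srm* and *Sms* higher, *Azin1* lower), beside 37.7% of all genes (18.7% higher, 19% lower), and for 3 of 8 in GLLP (*Srm* and *Sms* higher, *Odc1* lower), beside 44.7% (22.8% higher, 21.9% lower). The median log2 fold change of the 8 was 0.40 in CTR against 0.07 over all genes (0.17 against 0.0078 without CTR replicate 5 of PND540), and 0.0091 in GLLP against 0.019. None of the remaining genes passed in either diet: *Amd1* had 0.25 and 0.10, *Sat1* 0.65 and -0.09, *Smox* 0.25 and -0.10, *Azin1* -0.73 and 0.13, and *Oaz1* 0.55 and -0.08 in CTR and GLLP in that order, with adjusted p from 0.131 to 0.797. 

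Without CTR replicate 5, 4 of the 8 genes passed in CTR, beside 49% of 13427 genes (26% higher, 23% lower). *Odc1* then fell 1.68-fold (log2 fold change -0.75 ± 0.16 SE, adjusted p = 0.00414) and *Azin1* fell 1.37-fold (-0.46 ± 0.14 SE, adjusted p = 0.021). *Srm* and *Sms* were still higher, with 3.51 ± 0.62 SE and 0.76 ± 0.17 SE (adjusted p = 0.00121 and 0.00443). *Oaz1*, at 0.55 with that library, stood at -0.19 without it (adjusted p = 0.242). The *Sms* call was lost in CTR without replicate 2 or replicate 4 of PND21 (0.98 and 0.93, adjusted p = 0.0669 and 0.0704) and in GLLP without replicate 3 of PND21 (0.97, adjusted p = 0.0506). The *Srm* calls held in all 9 and all 7 fits that left out a library, and the *Odc1* call in GLLP held in all 7, with adjusted p up to 0.0493.

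Markers of other cells moved with age as well. Proliferating-cell markers summed to 143 to 299 CPM at PND21 and 2.90 to 13.8 CPM at PND540, and 5 of 5 were lower at PND540 in each diet. Fibroblast markers summed to 3968 to 7150 CPM and then 65.4 to 586 CPM (3 of 5 lower in CTR, 4 of 5 in GLLP), and smooth muscle markers to 3286 to 4108 CPM and then 527 to 1596 CPM (4 of 5 lower in each diet). Endothelial markers were lower for 2 of 3 tested in CTR and 3 of 3 in GLLP, with sums of 66.2 to 89.6 CPM and then 3.09 to 28.6 CPM. Skeletal muscle markers were lower for 8 of 8 in GLLP, where they had summed to 1022 to 1199 CPM at PND21, and in CTR 2 of 7 were lower and 1 higher. Other lists had members that rose: of the adipocyte markers 1 of 4 in CTR and 3 of 4 in GLLP (sums of 1.65 to 39.3 CPM and then 1.34 to 159 CPM), and of the immune markers 2 of 4 in CTR and 1 of 4 in GLLP (38.4 to 61.5 CPM and then 37.4 to 130 CPM). Of 3 basal markers tested, 1 was higher in CTR and 1 lower in GLLP, and the epithelial list had 2 of 10 higher and 1 of 10 lower in each diet. Their part in the changes of *Odc1*, *Srm* and *Sms* was not tested.

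**Figure D2:**
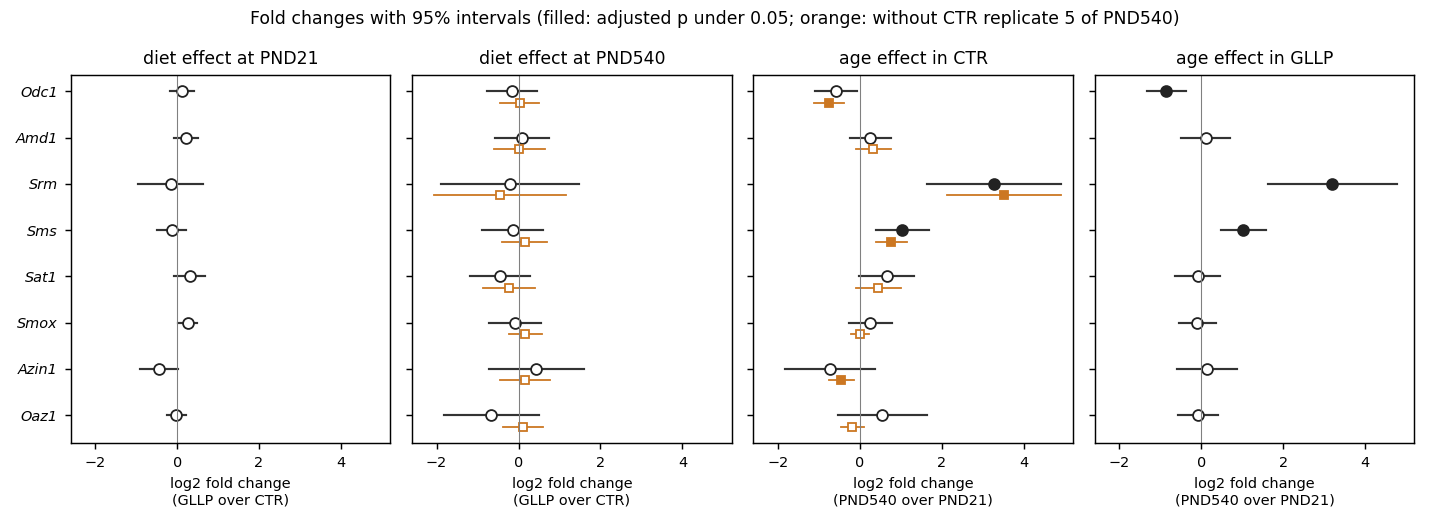
Log2 fold change of each gene with its 95% interval in the diet comparison at each age and the age comparison in each diet; filled points passed the test, and orange squares leave out CTR replicate 5 of PND540. Srm and Sms lie to the right of 0 in both age panels, and the interval of every gene includes 0 in the diet panel of PND540.

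Beside the 8 stood 36 other genes of polyamine metabolism, and 34 of them had enough counts for the age tests (*Oaz3*, the antizyme of the testis, and *Aldh18a1* did not). In CTR 5 rose and 2 fell, beside 17.3% and 13.2% of all genes, and in GLLP 6 rose and 5 fell, beside 19.1% and 17.1%. Without CTR replicate 5 of PND540, a setting added after seeing the data, 8 rose and 9 fell in CTR, beside 26% and 23% of all genes. The medians were 0.0038 in CTR and -0.23 in GLLP, against 0.07 and 0.019 over all genes. The second antizyme, *Oaz2*, rose in both diets, from a mean of 42.8 ± 1.35 (SD, n = 4) to 94.8 ± 36.7 CPM (SD, n = 5) in CTR (log2 fold change 1.15 ± 0.25 SE, adjusted p = 0.00716) and from 41.7 ± 2.42 (SD, n = 3) to 75.6 ± 13.0 CPM (SD, n = 4) in GLLP (0.85 ± 0.16 SE, adjusted p = 0.00333). Without CTR replicate 5 its rise in CTR was 0.88 ± 0.11 SE (adjusted p = 0.000128), and its calls held in all 9 and all 7 fits that left out a library.

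The methionine adenosyltransferases, which supply S-adenosylmethionine to *Amd1*, moved in opposite directions. *Mat2a*, the form of most tissues, had 4375, 4604, 4802 and 4944 CPM in CTR at PND21 and 778, 1497, 1667, 524 and 61.4 CPM at PND540, and fell by 2.37 ± 0.69 SE on the log2 scale (adjusted p = 0.0275). In GLLP it went from 4843, 3173 and 3327 CPM to 1084, 1182, 1153 and 922 CPM (-1.81 ± 0.21 SE, adjusted p = 0.000272). The ages did not overlap in either diet. Without CTR replicate 5 it fell by 2.07 ± 0.34 SE on the log2 scale in CTR (adjusted p = 0.000853). The CTR call was lost without any single CTR replicate of PND21, and without replicate 1 or 4 of PND540, with adjusted p up to 0.0617 and estimates from -2.71 to -2.07 over the 9 fits. *Mat1a*, the liver form, rose by 1.78 ± 0.54 SE in CTR (adjusted p = 0.0327) and by 1.95 ± 0.44 SE in GLLP (adjusted p = 0.00804), from means of 1.16 and 0.732 CPM. The CTR value was 1.11 ± 0.32 SE (adjusted p = 0.0159) without CTR replicate 5 of PND540. Its CTR call was lost without any single CTR replicate of PND21 or replicate 1 of PND540 (adjusted p up to 0.0913, estimates 1.11 to 1.99).

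Among genes of arginine and ornithine metabolism, 2 of 8 rose and 1 fell in CTR, and 2 rose and 2 fell in GLLP, to be read beside the shares of all genes above. In CTR, mitochondrial arginase *Arg2* fell by 0.78 ± 0.21 SE on the log2 scale, argininosuccinate synthase *Ass1* rose by 1.15 ± 0.33 SE and agmatinase *Agmat* by 1.11 ± 0.33 SE. The *Arg2* call was lost without CTR replicate 3 of PND21 (-0.66), that of *Ass1* without any single CTR replicate of PND21 (1.12 to 1.19), and that of *Agmat* without replicate 2, 3 or 4 of PND21 or replicate 3 of PND540 (0.97 to 1.11). The values were -0.71 for *Arg2*, 1.13 for *Ass1* and 0.94 for *Agmat* without CTR replicate 5 of PND540, each still called. In GLLP, arginase *Arg1* fell by 1.79 ± 0.39 SE and ornithine aminotransferase *Oat*, which takes ornithine out of the route to putrescine, fell by 0.68 ± 0.16 SE, while the arginine carrier *Slc7a2* rose by 1.36 ± 0.43 SE and *Agmat* by 1.28 ± 0.41 SE. The *Oat* call was lost without GLLP replicate 3 of PND21 (-0.62), that of *Slc7a2* without replicate 3 or 4 of PND21 or replicate 2 or 3 of PND540 (1.01 to 1.35), and that of *Agmat* without any single library of PND21 or replicate 2 or 3 of PND540 (0.94 to 1.31). With every library kept, a joint fit of all 16 libraries lost the calls of *Oat* (adjusted p = 0.132) and *Slc7a2* (0.0823), and scaling by library size alone lost those of *Slc7a2* (0.059) and *Agmat* (0.0757). The falls of *Arg1* and *Oat* were not confined to GLLP. In CTR they were -0.29 and -0.70, neither called. Without CTR replicate 5 of PND540 they were -0.97 and -0.49, both called (adjusted p = 0.00908 and 0.0213).

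*Sat2*, a relative of *Sat1* that was listed here with the genes of breakdown without a check of its own activity, fell by 1.82 ± 0.41 SE on the log2 scale in GLLP. In CTR it was -0.30 (adjusted p = 0.634), and -0.89 without CTR replicate 5 of PND540 (adjusted p = 0.00894). Among the carriers, *Slc22a3*, an organic cation carrier that can move polyamines, fell by 1.45 ± 0.45 SE in GLLP, from a mean of 1.02 to 0.373 CPM. Its GLLP call was lost in 6 of 7 fits that left out a library (all but the fit without replicate 4 of PND540, -1.60 to -1.11), and with no filter on low counts (adjusted p = 0.0531). In CTR *Slc22a3* was -1.38 (adjusted p = 0.065), and -1.12 without CTR replicate 5 of PND540 (adjusted p = 0.0318). *Atp13a3*, a polyamine transporter, rose in GLLP (1.35 ± 0.46 SE, adjusted p = 0.048) and lies outside the rule for named genes, being named after its value was seen. The hypusine pathway, which uses spermidine to modify eIF5A, had 0 of 4 genes called and methylthioadenosine salvage 0 of 5, in each diet, beside 30.5% of all genes in CTR and 36.2% in GLLP. The salvage result in CTR depended on CTR replicate 5 of PND540. Without it *Apip* (0.43) and *Mri1* (0.33) were called higher and *Enoph1* (-0.28) lower, beside 49% of all genes. These genes were named after their values were seen, and no hypusine gene was called in that fit.

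**Figure D3:**
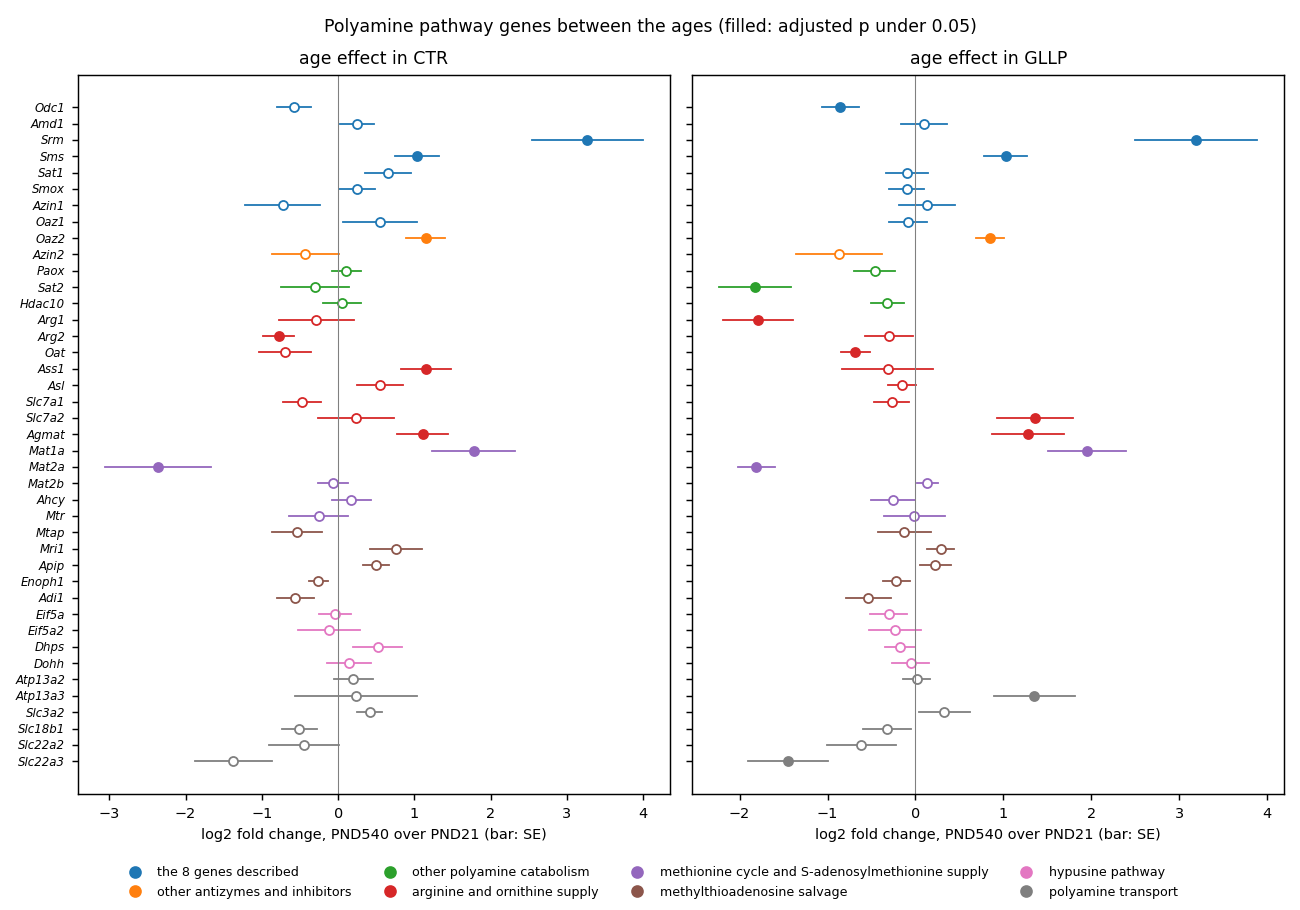
Log2 fold change (PND540 over PND21, bar: SE) of the 8 genes and 33 others of polyamine metabolism in CTR and GLLP, coloured by role; filled points passed the test. Oaz2, Mat1a and Agmat are filled and right of 0 in both panels, and Mat2a is filled and left of 0 in both.

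At PND21 none of the 8 genes passed the test for the maternal diet. Of the 8 genes 0 were called, beside 1.11% of 14915 genes (1.01% higher, 0.107% lower), and DESeq2 called 0 of 8 as well. For *Smox* all 3 GLLP libraries, at 21.5 to 24.5 CPM, lay above all 4 CTR libraries, at 18.0 to 20.8 CPM. The difference was 0.26 ± 0.10 SE on the log2 scale, with an adjusted p of 0.228 by edgeR, and *Smox* was the 1 gene of the 8 whose unadjusted p (0.0352) was under 0.05. Such a separation was seen for 1 of 8 genes and for 17.1% of all genes. *Azin1* went the other way, at -0.44 ± 0.20 SE (adjusted p = 0.269), with GLLP replicate 4 the lowest library and GLLP replicate 2 inside the CTR range.

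The other 6 genes at PND21 had differences of 0.30 for *Sat1*, 0.22 for *Amd1*, 0.12 for *Odc1*, -0.02 for *Oaz1*, -0.13 for *Sms* and -0.16 for *Srm*, with overlapping ranges. Their 95% intervals bound how far the diet groups could differ at this depth and number of libraries: -0.26 to 0.22 for *Oaz1*, -0.17 to 0.41 for *Odc1* and -0.95 to 0.64 for the sparsely read *Srm*. The median over the 8 genes was 0.05 and over all genes -0.0038. Skeletal muscle markers differed between these diet groups, with 8 of 8 higher in GLLP and sums of 1022 to 1199 CPM against 357 to 443 CPM in CTR. The summed epithelial markers were 28390 to 38149 CPM in GLLP against 44527 to 55436 CPM in CTR, with 0 of 10 called. Most of that sum came from *Scgb1d2* and *Scgb2a1*. The diet ranges were apart for these genes and for *Krt8*, and overlapped for the rest of the list, *Epcam* and *Hoxb13* among them. The part of the muscle and epithelial markers in the values of *Smox* and *Azin1* was not tested.

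Of 33 other pathway genes tested for diet at PND21, 1 was called: *Ass1*, the enzyme that condenses citrulline and aspartate toward arginine. It had 0.578, 0.504, 0.502 and 0.532 CPM in CTR and 1.33, 1.45 and 2.62 CPM in GLLP, 3.39-fold higher (log2 fold change 1.76 ± 0.32 SE, adjusted p = 0.0378). All 3 GLLP libraries lay above all 4 CTR libraries, at low levels throughout. In 6 of 7 fits that left out a library (all but the fit without GLLP replicate 2) the call was lost, with estimates of 1.39 to 1.90 and adjusted p of 0.0797 to 0.125. It was also lost in the joint fit of all 16 libraries (adjusted p = 0.262).

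At PND540 the diet groups overlapped for every one of the 8 genes. None was called and none had an unadjusted p under 0.05. Over all genes edgeR called 0 of 14767 (0%), 123 had an unadjusted p under 0.05, and DESeq2 called 2 genes, with 0 of the 8 among them. The ranges of the 2 diets were apart for 0 of 8 genes and for 0.406% of all genes.

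*Srm* had the widest interval, -0.21 (95% interval -1.89 to 1.46), and it was nearly as wide without CTR replicate 5, -0.46 (-2.08 to 1.16). Leaving out that library moved *Oaz1* the most of the 8. Its estimate was -0.66 (95% interval -1.83 to 0.50) with that library and 0.10 (-0.39 to 0.59) without it. *Azin1* was 0.43 (-0.72 to 1.59) with it and 0.16 (-0.46 to 0.77) without, and *Sat1* was -0.45 (-1.18 to 0.29) and -0.23 (-0.86 to 0.40). *Odc1*, *Sms* and *Smox* went from -0.16, -0.14 and -0.09 to 0.02, 0.15 and 0.17. *Amd1* was 0.09 and 0.01, and without the library 0 of 8 genes and 0% of 14638 genes were called. The other pathway genes had 0 of 34 called, and the 3 of smallest p were *Arg2* (0.36 ± 0.22 SE), *Dhps* (-0.55 ± 0.34 SE), the first enzyme of hypusine synthesis, and *Sat2* (-0.86 ± 0.55 SE), with adjusted p = 0.914 each. Leaving out CTR replicate 5 gave 0.30, -0.13 and -0.24.

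The change of the diet effect with age was not called for any of the 8 genes, beside 13 of 14178 genes (0.0917%), all lower. The largest estimates were 0.87 ± 0.67 SE for *Azin1* and -0.73 ± 0.42 SE for *Sat1* (adjusted p = 0.738 each), or 0.58 ± 0.38 SE and -0.55 ± 0.36 SE without CTR replicate 5. Of the 8 genes, 0 had an unadjusted p under 0.05, and DESeq2 called 0 of 8. The age call of *Odc1* in GLLP and its absence in CTR were not shown to differ: the interaction for *Odc1* was -0.26 ± 0.32 SE (adjusted p = 0.787), and -0.11 ± 0.27 SE without CTR replicate 5. *Oaz1* was -0.62 with that library and 0.10 without, and *Smox* -0.33 and -0.11. Of 34 other pathway genes 0 were called, and the 3 of smallest p were *Ass1* (-1.45 ± 0.59 SE), *Sat2* (-1.51 ± 0.64 SE) and *Arg1* (-1.49 ± 0.67 SE), with adjusted p = 0.738 each. With that library left out they were -1.46, -0.94 and -0.83.

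**Figure D4:**
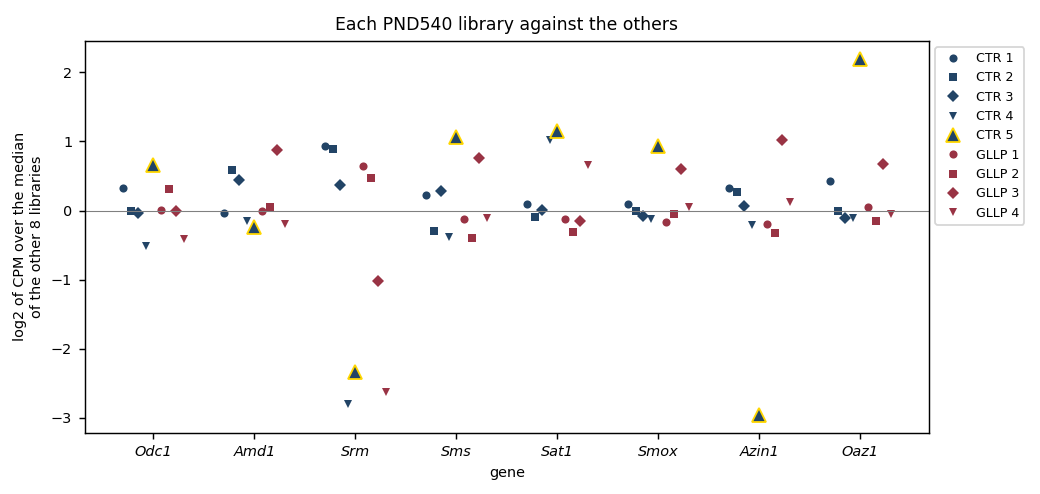
Each PND540 library against the median of the other 8, as log2 of the ratio of CPM, for the 8 genes; CTR replicates are dark blue, GLLP replicates red, and CTR replicate 5 is the outlined triangle. That library is the highest point for Odc1, Sms, Sat1, Smox and Oaz1 and the lowest for Amd1 and Azin1, and Srm splits into 5 higher and 4 lower libraries.

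CTR replicate 5 of PND540 lay outside the other 8 libraries for 7 of the 8 genes. It was above them for *Oaz1* (4.60 times their median), *Sat1* (2.21 times), *Sms* (2.08 times), *Smox* (1.90 times) and *Odc1* (1.57 times), and below them for *Azin1* (7.77-fold) and *Amd1* (1.18-fold). Beside these 7 of 8, 70.4% of all genes lay outside in that library. Its antizyme and antizyme inhibitor thus went opposite ways. For *Amd1* the gap was small, at 1060 CPM against 1092 CPM in the next lowest library. *Mat2a* was lowest there as well, at 61.4 CPM.

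GLLP replicate 3 of PND540 was the highest library of its group for *Amd1*, *Sms*, *Smox*, *Azin1* and *Oaz1*. The share of all genes for which it was highest in its group was not counted, and nothing particular to these genes is read from it. This library lay outside all others of its age for 25.4% of 14767 genes. Its *Azin1* level, 339 CPM, was also above all other libraries of either age. It therefore had both antizyme and its inhibitor high, unlike CTR replicate 5.

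Ratios of reads within a library do not depend on its scaling, and since transcript lengths were not used they are not ratios of molecules. Reads of *Oaz1* per 100 reads of *Odc1*, the inhibitor against its target, were 46.4 to 54.4 in CTR and 42.4 to 52.0 in GLLP at PND21. At PND540 they were 68.1 to 205 in CTR (the highest without replicate 5 was 94.8) and 52.1 to 112 in GLLP. Every PND540 library except GLLP replicate 2 lay above all 7 libraries of PND21, and GLLP replicate 2, at 52.1, lay within their range.

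Reads of *Azin1* per 100 reads of *Oaz1* were 33.8 to 47.8 in 8 of the PND540 libraries and 1.13 in CTR replicate 5. At PND21 they were 39.96 to 61.1 in CTR and 20.8 to 47.7 in GLLP, where GLLP replicate 4 was the lowest. Reads of *Sms* per 100 of *Odc1*, the last synthase against the first enzyme, were 5.30 to 9.98 at PND21 and 14.6 to 37.2 at PND540, with no overlap of the ages. Reads of *Sat1* per 100 of *Odc1* were 5.98 to 10.4 at PND21 and 9.17 to 38.6 at PND540, and these ranges overlapped. The ratios were described and not tested, and no share over other pairs of genes was counted beside them. The *Sms* to *Odc1* ratio joins the age differences of *Sms* and *Odc1* given above and is not separate evidence.

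**Figure D5:**
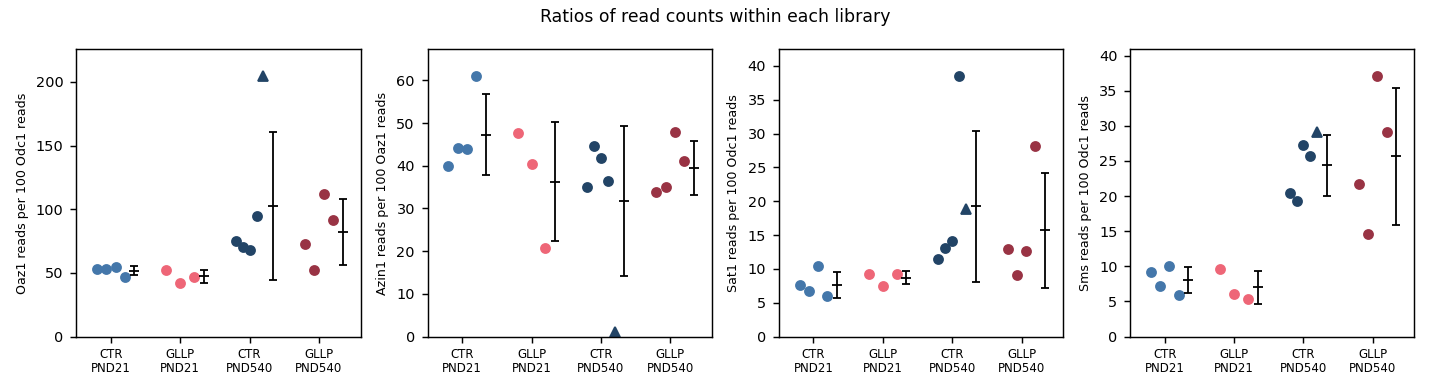
Reads of one gene per 100 reads of another within each library, by diet and age (points: libraries, triangles: CTR replicate 5 of PND540, bars: mean ± SD, linear axes from 0). The Sms to Odc1 ratio is 5.30 to 9.98 at PND21 and 14.6 to 37.2 at PND540, and the Azin1 to Oaz1 ratio of CTR replicate 5 is 1.13.

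The genes whose levels followed *Odc1* and *Sat1* most closely were ranked by the lower of the Pearson correlations of log2 CPM over the 7 libraries of PND21 and over the 9 of PND540, among 9107 genes. For *Odc1* they were *Idh3g* (0.90 and 0.91), a subunit of mitochondrial isocitrate dehydrogenase, *Gorasp1* (0.90 and 0.90), a Golgi stacking protein, *Fpgs* (0.88 and 0.91), which adds glutamates to folates, *Eif4a3* (0.87 and 0.94), of the exon junction complex, and *Snrpb* (0.88 and 0.87), a core spliceosome protein. For *Sat1* they were *S100a11* (0.92 and 0.98), a calcium-binding protein, *Lgals3* (0.93 and 0.91), a galectin, *Paqr6* (0.90 and 0.92), a membrane progestin receptor, *Anxa2* (0.89 and 0.96), an annexin, and *Ddah2* (0.89 and 0.89). Without CTR replicate 5 the PND540 values were 0.83 to 0.91 for the 5 genes of *Odc1* and 0.85 to 0.98 for those of *Sat1*. The libraries share diet groups and depth, and these correlations are a description of the ranking.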

How the data were processed

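RNA of 16 ventral prostates was sequenced, per the labels' protocols, from total RNA extracted with Trizol. The authors deposited whole-number read counts per gene, not normalized, in 1 table per age (28688 and 24218 entries, 19709 names in both). The submitters' processing notes name STAR, edgeR 3.34.0 and Rnor_6.0 without roles. Which annotation and counter were used, and whether counting was stranded, is not given in the sources used here.

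Each comparison was fitted on all genes with edgeR 4.0.16 in R 4.3.3 (filterByExpr, TMM, robust quasi-likelihood tests, two-sided, Benjamini-Hochberg, threshold 0.05), and DESeq2 1.42.0 was an alternative. The fitting script was tested on simulated data. SE is the log2 fold change divided by the square root of F, and printed CPM values use 1 TMM scaling of all 16 libraries on shared names. The genes and lists were chosen with earlier results of these data known. The 8 genes are named in every comparison, and of the other pathway genes those called, up to 10 of smallest p, or the 3 of smallest p where none was called. Of the called pathway genes, 1 enters the counts and is not reported here. Genes like *Odc1* or *Sat1* needed a mean of 5 CPM at each age (pseudocount 1). Promoter windows and pseudogene names came from RefSeq tables of GRCr8. Alternatives were RLE size factors, library size alone, non-robust dispersions, a minimum of 1 CPM, no low-count filter, a replicate block, a joint fit and leaving out each library. Counts of other pathway genes without CTR replicate 5 of PND540 were added after seeing the data. Figures were drawn with matplotlib 3.10.9.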

Additional observations from a re-analysis of the deposited data

Results flagged for a closer look

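In groups of 4 or 5 libraries, the highest or lowest value was set against the range of its group, and 4 of 24 groups of the 8 genes had a library far from the rest. Chance alone marks about 5% of such groups, and the share over all genes was not counted. Each library of PND540 lay outside the others of its age for a share of 14767 genes. The shares were 70.4% for CTR replicate 5, 25.4% for GLLP replicate 3 and 22.9% for GLLP replicate 4. In the libraries without a flag they ran from 7.65% (CTR replicate 3) to 22.6% (GLLP replicate 2), so only CTR replicate 5 stood well apart by this measure. With no share over all genes for the flags themselves, nothing particular to the 8 genes is read from them. Oaz1 stood at 2042 CPM in CTR replicate 5 of PND540, with the next library at 597 CPM. Smox stood at 37.1 CPM in the same library, with the next at 20.7 CPM. Amd1 stood at 2262 CPM in GLLP replicate 3 of PND540, with the next at 1271 CPM. Sat1 stood at 135 CPM in GLLP replicate 4 of PND540, with the next at 82.1 CPM.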

How the results depend on the processing

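The 8 genes gave the same number of calls within 1.5 times in the fits that kept every library. The diet comparisons and the interaction had 0 of 8 calls under each alternative, including each fit that left out 1 library. In the age comparison of CTR, 1 to 4 of 8 genes were called when 1 library was left out. *Srm* was higher with age in all alternatives of both diets. *Odc1* in CTR was called with library size alone (-0.74, adjusted p = 0.00823), in the joint fit (-0.58, adjusted p = 0.0423) and with the replicate block (-0.77, adjusted p = 0.0111), over alternatives with adjusted p from 0.00823 to 0.1. With the replicate block, *Odc1* in GLLP was -0.87 (adjusted p = 0.0684), and the calls of *Ass1* at PND21 and with age in CTR, and of *Agmat* and *Slc22a3* with age in GLLP, had adjusted p = 0.279, 0.0515, 0.098 and 0.132. The replicate numbers were not treated as pairs: correlations of same-numbered samples ran from -0.17 to 0.30 and not all passed 0.1 in any comparison. The labels do not say whether the numbers pair the samples, and so few same-numbered samples cannot decide it. DESeq2 gave no adjusted p for 1 of 8 genes, *Oaz1*, at PND540 and in the age comparison of CTR.

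Counts over all genes changed more. For the diet at PND21, 166 genes became 650 with library size alone, 936 with DESeq2 (69.4% higher, against 90.4%), 27 with the replicate block, 40 in the joint fit, and 62 to 1509 when 1 library was left out (1509 without GLLP replicate 2). DESeq2 gave 2 for the diet at PND540 and 49 for the interaction. Leaving out 1 library gave 3040 to 6574 for age in CTR and 7 to 16 for the interaction. Library size alone shifted the median log2 fold change of all genes by 0.14 for the diet at PND21, by -0.12 for age in CTR and by -0.18 for age in GLLP, where the share of higher calls went from 52.7% to 40.3%.

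Directions changed only for estimates that did not pass the test with or without the alternative. With library size alone these were *Sms* (0.0053) and *Oaz1* (0.12) for the diet at PND21, *Amd1* (-0.10) and *Azin1* (-0.076) for age in GLLP, and *Sms* (-0.031) for the interaction. With the replicate block they were *Odc1* (0.036), *Amd1* (-0.022), *Sms* (0.11), *Smox* (0.14) and *Oaz1* (0.080) for the diet at PND540, and *Oaz1* for age in CTR (-0.20) and the interaction (0.077). *Sms* in the interaction was -0.025 with RLE size factors, -0.024 with DESeq2 and -0.0053 with the filter at 1 CPM. Leaving out 1 library changed the direction within these ranges: at PND21, *Srm* -0.43 to 0.10 and *Oaz1* -0.13 to 0.046. At PND540 they were *Odc1* -0.27 to 0.025, *Amd1* -0.21 to 0.22, *Srm* -0.55 to 0.12, *Sms* -0.41 to 0.15, *Smox* -0.28 to 0.17 and *Oaz1* -0.88 to 0.10. For age they were *Oaz1* -0.19 to 0.71 in CTR, and *Amd1* -0.18 to 0.23, *Sat1* -0.33 to 0.083, *Azin1* -0.22 to 0.32 and *Oaz1* -0.29 to 0.038 in GLLP. For the interaction they were *Srm* -0.41 to 0.27, *Sms* -0.27 to 0.27 and *Oaz1* -0.84 to 0.10. The cause was not tested. Depth limits *Srm* most, at 15 to 25 counts per library at PND21.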
